A study of Homo sapiens with 6 samples.

Results

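This account covers 10 genes that restrain the MAP kinase pathways: the dual-specificity phosphatase genes DUSP1, DUSP4, DUSP5, DUSP6, DUSP7, DUSP8, DUSP10 and DUSP14, and the Sprouty genes SPRY2 and SPRY4. They were chosen by gene symbol, and all 10 were found among the 16798 genes of the deposited gene table. Total RNA of 6 samples of COV434 cells, a human line that the labels call granulosa cells (GCs) of wild-type genotype, was sequenced. Of these, 3 were control samples and 3 had been exposed for 24 h to 15 µM 4HC, the active metabolite of cyclophosphamide (CTX), a chemotherapy drug that damages the ovary. The labels give no solvent for the control group and do not say whether the 3 samples of a group were grown as separate cultures, so the p-values below measure the spread between these samples, which may be technical. The comparison asked which genes changed in GCs exposed to CTX.

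MAP kinases carry signals from growth factor receptors and from cell stress to the nucleus by adding phosphate to other proteins, and they are switched on when a threonine and a nearby tyrosine of their own are phosphorylated. The dual-specificity phosphatases remove the phosphate from both residues, and they differ in which kinases they prefer (ERK, JNK or p38) and in where they sit in the cell. Many of these phosphatase genes, and the Sprouty genes, whose products act between the receptor and RAF, are themselves switched on by the pathway, which makes them negative feedback regulators and common readouts of ERK activity. In the ovary, MAP kinase signalling in GCs is best known for its part in the response to gonadotropins and to EGF-like ligands around ovulation.

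The total of expected counts per sample ranged from 16133786 to 16702316. These are the counting program's estimates of each gene's reads and can hold fractions. Expression is given as TMM-normalized CPM (counts per 1000000 reads, scaled between libraries by the TMM method) unless TPM, which is also scaled to transcript length, is named. Of 11 granulosa markers in the gene table (FOXL2, AMH, FSHR, CYP19A1, INHA, INHBA, INHBB, NR5A1, GATA4, WT1 and STAR), 8 were under 1 TPM in every sample, among them FOXL2, FSHR and CYP19A1. Only WT1, a transcription factor of the gonad and kidney, AMH and INHA were high enough to be tested. The summed TPM of the 11 markers was 138 to 142 in the control group and 110 to 116 in the 4HC group, nearly all of it from WT1 (133 TPM in control and 107 in 4HC). The labelled cell type was therefore backed by few of its defining markers. The fibroblast markers COL1A1, COL1A2, DCN and LUM summed to 53.1 to 57.5 TPM in control and to 53.1 to 55.9 TPM in 4HC, the epithelial markers EPCAM, KRT8, KRT18 and CDH1 to 6.1 to 8.4 and 7.55 to 7.9 TPM, and the leukocyte markers PTPRC, CD68 and LYZ to 2.32 to 2.97 and 3 to 3.85 TPM. Most of the fibroblast sum came from LUM (43.2 TPM in control) and DCN (11.5), with COL1A1 at 0.257 and COL1A2 at 0.94 TPM. Most of the epithelial sum came from KRT8 (6.35 TPM in control), with EPCAM at 0.0267 and CDH1 at 0.0533 TPM. The endothelial markers PECAM1, CDH5 and VWF did not exceed 0.06 TPM in sum. The part of these markers in the results below was not tested.

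The phosphatases share a catalytic stretch in which a histidine and a cysteine are followed, after 5 residues, by an arginine. The cysteine attacks the phosphate and the arginine holds it. The codons of this stretch are shown because they are what makes these genes phosphatases, whereas no such stretch was found in the coding sequences of SPRY2 and SPRY4, which act as adaptors. They were read from the GENCODE release 29 transcripts (GRCh38), with the cysteine and arginine codons in capitals, and each lay within a single exon. DUSP4 and DUSP5 also hold 1 such stretch each, which is not shown.
DUSP1: cacTGCcaggcaggcatttccCGG
DUSP6: catTGCttggctggcattagcCGC
DUSP7: cacTGCctggcaggcatcagcCGC
DUSP8: cacTGTctggctggcatctccCGC
DUSP10: cacTGCcaggctggggtgtccCGC
DUSP14: cacTGTgctgcaggggtgagcCGC

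In this order the stretches lie at chr5:172769074-172769097 in exon 4 of DUSP1 (minus strand), chr12:89349503-89349526 in exon 3 of DUSP6 (minus strand), chr3:52051064-52051087 in exon 3 of DUSP7 (minus strand), chr11:1557859-1557882 in exon 5 of DUSP8 (minus strand), chr1:221702619-221702642 in exon 4 of DUSP10 (minus strand) and chr17:37512600-37512623 in exon 3 of DUSP14 (plus strand). The catalytic cysteine was residue 258 of DUSP1, 293 of DUSP6, 331 of DUSP7, 246 of DUSP8, 408 of DUSP10 and 111 of DUSP14, which has 198 residues and is the smallest of these proteins. Over the 24 bases, DUSP6 and DUSP7, both cytoplasmic ERK phosphatases, matched at 20 positions, and so did DUSP7 and DUSP8. DUSP1 and DUSP14 matched at 14.

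The level of each gene per length was compared first, in TPM. DUSP14 was the most abundant of the 10, at 68.7 ± 1.67 TPM in control and 73.6 ± 5.16 TPM in 4HC (SD, n = 3), higher than 87.9% of all genes in control. DUSP1 followed at 15.7 ± 0.225 TPM in control, then DUSP6 at 10.6 ± 0.575 and DUSP7 at 10.0 ± 0.480. The Sprouty genes were close to each other, with SPRY2 at 5.50 ± 0.224 and SPRY4 at 5.24 ± 0.140 TPM in control. DUSP8 (2.93 ± 0.206 TPM), DUSP5 (0.930 ± 0.167 TPM) and DUSP10 (0.103 ± 0.0493 TPM) were lower, and DUSP4 was at or near 0. In control, the ranges of DUSP6 and DUSP7 overlapped, as did those of SPRY2 and SPRY4, and the ranges of all other neighbours in the order did not overlap. In 4HC the order was the same except that SPRY4 (5.22 ± 0.0950 TPM) stood above SPRY2 (4.82 ± 0.412 TPM), whose ranges again overlapped, and DUSP6 (11.9 ± 0.206 TPM) no longer overlapped DUSP7 (9.34 ± 0.461 TPM). With the deposited FPKM values in place of TPM, all 10 genes kept the same rank over the 6 samples. Within a sample the 2 units differ by a common factor, so this is not a check on the order.

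**Figure D1:**
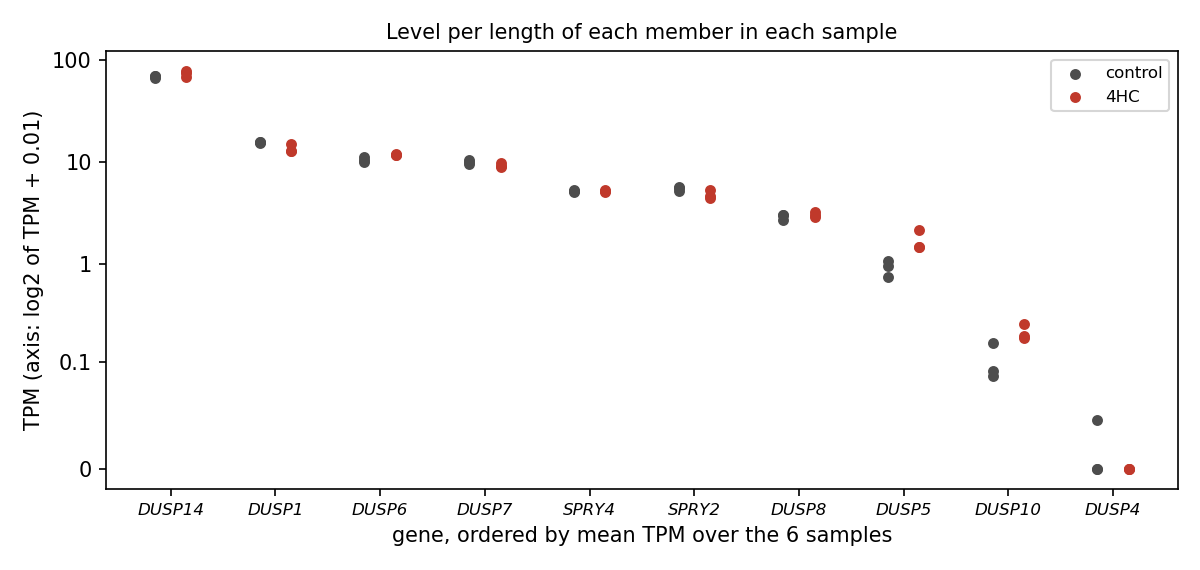
TPM of each of the 10 genes (x axis, ordered by mean over the 6 samples) in each control (grey) and 4HC (red) sample, on a log2 axis of TPM + 0.01; each point is 1 sample. DUSP14 lies near 70 TPM in both groups, while DUSP5, DUSP10 and DUSP4 lie near or below 1 TPM.

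Of the 10 genes, 8 had enough counts for edgeR's quasi-likelihood test of 4HC against control, run over 12368 genes, and DUSP4 and DUSP10 fell below the filter. At a Benjamini-Hochberg adjusted p under 0.05, DUSP5 and DUSP6 were higher in 4HC, DUSP1 was lower, and 5 genes did not pass. These 3 of 8 genes are 37.5%, beside 36.4% of all genes tested (19.2% higher and 17.1% lower), so the share called was near that of the transcriptome as a whole. The median log2 fold change of the 8 genes was 0.04, and none changed by a fold of 2. In bulk RNA, fewer cells expressing a gene and less RNA of it per cell cannot be told apart. The same 3 genes were those whose groups did not overlap, DUSP5 and DUSP6 with every 4HC sample above every control sample and DUSP1 with every 4HC sample below. Among all genes tested, 23.4% had no overlap with 4HC higher and 21.9% with 4HC lower. Taken gene by gene, an exact two-sided permutation test of 3 against 3 samples cannot give a p below 0.1, which was the value for DUSP1, DUSP5 and DUSP6.

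**Figure D2:**
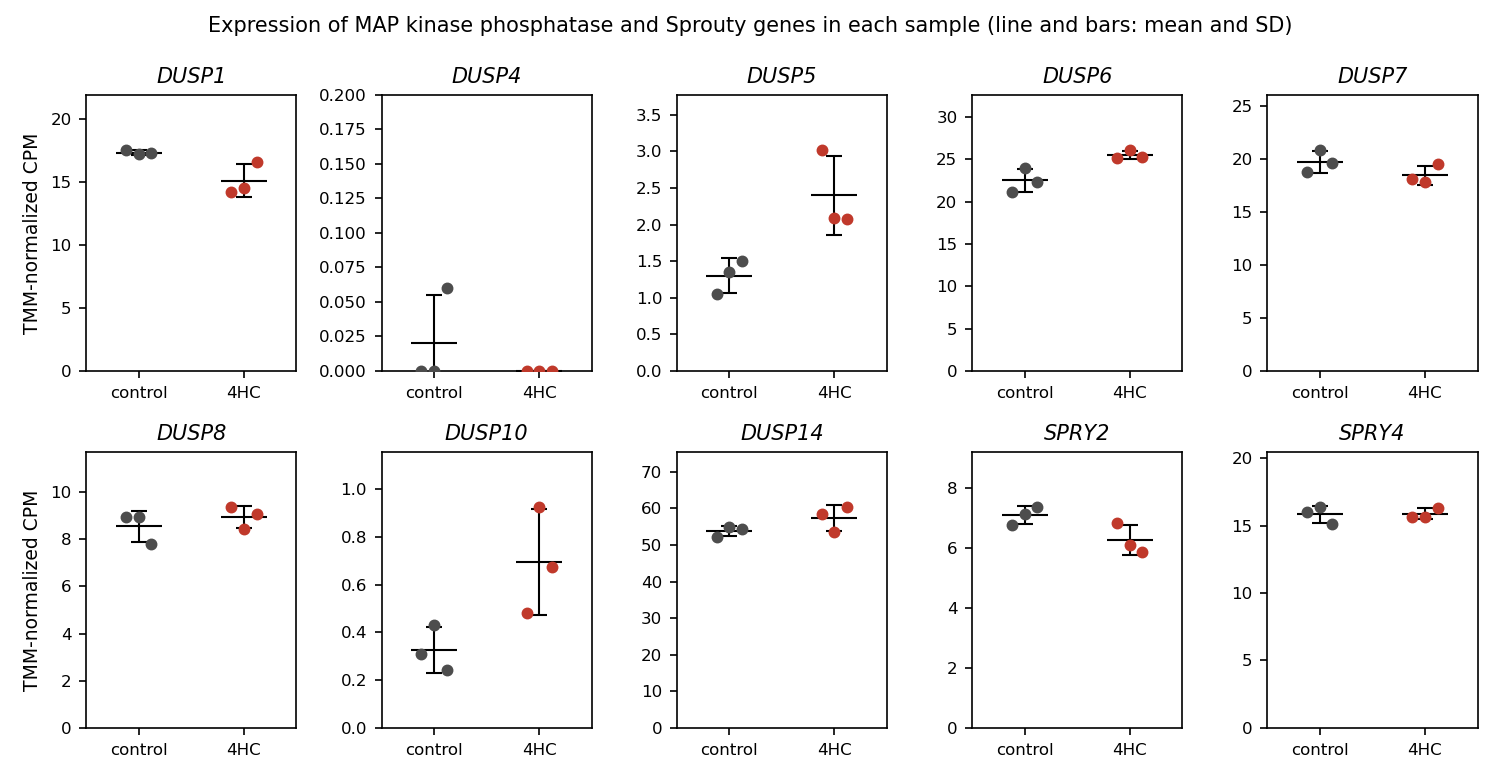
TMM-normalized CPM (y axis, from 0, a scale for each gene) of the 10 genes in the 3 control (grey) and 3 4HC (red) samples, with the mean (line) and SD (bars). The groups separate for DUSP1, DUSP5, DUSP6 and the low DUSP10, and overlap for DUSP7, DUSP8, DUSP14, SPRY2 and SPRY4.

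The nuclear phosphatases encoded by immediate early genes are DUSP1, DUSP4 and DUSP5. DUSP1, which acts mainly on p38 and JNK and is induced by stress and growth factors, lies at chr5:172768096-172771195 (5q35.1). Its level was 17.5, 17.2 and 17.2 CPM in the control samples and 14.2, 14.5 and 16.6 CPM in the 4HC samples. All 3 4HC samples were lower than all 3 control samples, but the third 4HC sample lay much nearer to the control group than the other two. The mean fell from 17.3 ± 0.173 to 15.1 ± 1.31 CPM (log2 fold change -0.20, SE 0.08, 95% confidence interval -0.36 to -0.04), with an adjusted p of 0.0495 in edgeR's quasi-likelihood test. This call sat at the threshold. It was lost without any of the 3 control samples (adjusted p 0.107, 0.0761 and 0.0983) and without the first or the second 4HC sample (0.170 and 0.154), and with DESeq2 (0.160), and it passed in 6 of 16 refits at the same adjusted p threshold (the alternatives counted below), with DUSP1 lower in all 16.

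The 250 bases before the start site of DUSP1 and of DUSP6 are shown because these genes had the largest changes, in opposite directions, among the tested members with an entry in the promoter table. The sequences are from RefSeq (GRCh38.p14, minus strand, chr5:172771196-172771445 for DUSP1 and chr12:89352502-89352751 for DUSP6). Capitals mark the cyclic AMP response element (CRE, TGACGTCA, which binds CREB and ATF proteins) and its shorter core TGACG, on either strand.
DUSP1: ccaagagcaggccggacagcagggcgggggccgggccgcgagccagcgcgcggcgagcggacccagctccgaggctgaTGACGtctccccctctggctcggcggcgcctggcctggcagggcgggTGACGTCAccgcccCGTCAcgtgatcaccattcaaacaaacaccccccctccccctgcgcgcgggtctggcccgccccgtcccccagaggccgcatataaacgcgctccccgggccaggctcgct
DUSP6: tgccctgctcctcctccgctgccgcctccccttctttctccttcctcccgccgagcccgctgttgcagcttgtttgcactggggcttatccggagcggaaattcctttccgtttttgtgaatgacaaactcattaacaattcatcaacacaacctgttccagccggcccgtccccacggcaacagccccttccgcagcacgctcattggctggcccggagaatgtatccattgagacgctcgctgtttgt

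The DUSP1 window held 1 whole CRE, whose first base lay 125 bases before the start, within which TGACG was also counted on each strand, and 2 further TGACG cores, as well as a TATAAA at 30 bases before the start and 4 SP1 boxes (GGGCGG). GC content was 74.4%. The DUSP6 window held none of these and only 1 CCAAT box, at 46 bases before the start, with a GC content of 57.2%. It lies inside the deposited span of DUSP6 (chr12:89347235-89353271), so its start site is not the outermost one. The DUSP1 window begins just outside the deposited span of DUSP1 (chr5:172768096-172771195). The 2 windows are therefore not placed alike. Searched on both strands of the 300-base windows (250 before to 50 after the start) of 35116 RefSeq promoters, TGACGTCA was present in 1.85%, TGACG in 24.6%, TATAAA in 11.5%, GGGCGG in 45% and CCAAT in 34.6%. The table held 11 windows for 8 of the 10 genes, without DUSP4 and DUSP5. SPRY2 and DUSP10 had more than 1 window each, so the 11 are not independent. Some windows of SPRY2 and DUSP10, and the window of SPRY4, also lay within the deposited gene spans. TGACGTCA was also found in the window of DUSP8 (2 matches), whose expression did not pass the test. The AP-1 site TGANTCA (7.71% of all windows), the ETS site CCGGAAG (10.3%) and the CArG box of serum response factor (1.29%) were in none of the 11. A match of letters is a description of the window and says nothing about which factor was bound there.

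The other nuclear phosphatase that could be tested, DUSP5, is specific for ERK and is itself induced by ERK signalling. It lies at chr10:110497907-110516025 (10q25.2). The control samples had 17, 22 and 25 counts (1.05, 1.35 and 1.51 CPM) and the 4HC samples 50, 34 and 34 counts (3.02, 2.10 and 2.08 CPM). Every 4HC sample was above every control sample, and the first 4HC sample stood above the other two. DUSP5 rose from 1.3 ± 0.234 to 2.40 ± 0.536 CPM, the largest change among the 8 tested genes (log2 fold change 0.88, SE 0.24, 1.84-fold with a 95% confidence interval of 1.32 to 2.56, adjusted p 0.00272 in edgeR's quasi-likelihood test). Without the first 4HC sample the log2 fold change was 0.67 and the adjusted p 0.0546, and the call held in the 15 other refits. Its fold of 1.84 does not pass a threshold of 2. On the log2(TPM + 1) and log2(FPKM + 1) scales, where the added 1 is close to the gene's own level, the limma estimates were 0.48 and 0.40. DUSP4, which acts on ERK and JNK in the nucleus, had 1 count in the third control sample and 0 in the other 5 samples. A count of 0 allows up to 3 counts, or 0.181 to 0.185 CPM in these libraries, so DUSP4 was not detectable in either group at this depth and no fold change is given.

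The cytoplasmic, ERK-specific phosphatases are DUSP6 and DUSP7. DUSP6 (chr12:89347235-89353271, 12q21.33) is the classic feedback phosphatase of FGF and ERK signalling. Its level was 21.2, 23.9 and 22.4 CPM in control and 25.1, 26.1 and 25.3 CPM in 4HC. All 4HC samples were above all control samples, by a margin smaller than the range of the control group. DUSP6 rose by 13.3% (22.5 ± 1.37 to 25.5 ± 0.511 CPM, log2 fold change 0.18, 95% confidence interval 0.05 to 0.31, adjusted p 0.0297 in edgeR's quasi-likelihood test). The call held in 10 of 16 alternatives, and was lost without the first control sample (adjusted p 0.165), the third control sample (0.0806) or the second 4HC sample (0.104), and with DESeq2 (0.139).

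DUSP7, at chr3:52048919-52056571 (3p21.2), had 18.7, 20.8 and 19.6 CPM in control and 18.1, 17.8 and 19.5 CPM in 4HC. The groups overlapped, and the log2 fold change of -0.09 (95% confidence interval -0.24 to 0.05, adjusted p 0.338 in edgeR's quasi-likelihood test) did not pass. The ratio of DUSP6 to DUSP7 within a sample, in CPM, was examined after these values were seen. It was 1.13, 1.15 and 1.15 in control and 1.39, 1.46 and 1.3 in 4HC. All 4HC samples were higher, with means of 1.14 ± 0.00990 and 1.39 ± 0.0810, a log2 difference of 0.28 (exact permutation p = 0.1, the smallest that 3 against 3 allows).

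DUSP8 and DUSP10 prefer the stress-activated kinases JNK and p38 over ERK. DUSP8 (11p15.5) had 8.94, 8.92 and 7.78 CPM in control and 9.36, 8.45 and 9.06 CPM in 4HC. The groups overlapped (log2 fold change 0.07, 95% confidence interval -0.15 to 0.29, adjusted p 0.662 in edgeR's quasi-likelihood test). DUSP10 (chr1:221701424-221742091, 1q41) was below the filter, with expected counts of 4.81, 7.03 and 3.88 in control and 8.44, 14.8 and 11.0 in 4HC. Every 4HC sample was above every control sample, in counts of under 15. When no filter was applied, the log2 fold change was 1.07 with an unadjusted p of 0.0232 and an adjusted p of 0.0787 in edgeR's quasi-likelihood test. When a sample was left out DUSP10 passed the filter in 4 of 6 fits, and its adjusted p was 0.0469 without the second control sample, 0.0357 without the first 4HC sample, 0.113 without the first control sample and 0.167 without the third. In these fits it passed the filter only through its higher 4HC samples. These adjusted p-values are therefore not an independent test of the difference.

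DUSP14 is an atypical member that lacks the kinase-binding domain of the classic phosphatases. It lies at 17q12 and had 52.3, 55.0 and 54.5 CPM in control and 58.5, 53.5 and 60.4 CPM in 4HC. The second 4HC sample lay within the control range, and the log2 fold change of 0.09 (95% confidence interval -0.01 to 0.19, adjusted p 0.162 in edgeR's quasi-likelihood test) did not pass.

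Sprouty proteins are induced by receptor tyrosine kinase signalling and blunt the activation of RAS and RAF. SPRY2 (chr13:80335976-80341126, 13q31.1) had 6.78, 7.14 and 7.36 CPM in control and 6.82, 6.11 and 5.88 CPM in 4HC. The groups overlapped by the first 4HC sample (7.09 ± 0.293 against 6.27 ± 0.492 CPM, log2 fold change -0.18, 95% confidence interval -0.43 to 0.07, adjusted p 0.272 in edgeR's quasi-likelihood test). SPRY4, at chr5:142236190-142326455 (5q31.3), had 16, 16.4 and 15.1 CPM in control and 15.6, 15.7 and 16.3 CPM in 4HC. Its means were 15.9 ± 0.633 and 15.9 ± 0.402 CPM, and the 95% confidence interval of its log2 fold change ran from -0.16 to 0.16 (adjusted p 0.981). The ratio of SPRY4 to SPRY2 within a sample overlapped between the groups (2.24 ± 0.160 in control and 2.55 ± 0.245 in 4HC, exact permutation p = 0.3). SPRY2 and SPRY4 did not pass the test in any of 16 alternatives, and neither did DUSP7, DUSP8 and DUSP14.

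Reads were also assigned to transcripts by the authors' counting program, and the division of reads between transcripts of a gene is an estimate. The table held 21 transcripts of the 10 genes, of which 11 had a mean of at least 10 counts. The groups did not overlap for 4 of the 11, with 4HC higher for 2 and lower for 2. Of all 42992 transcripts at that level, 9.87% did not overlap with 4HC higher and 9.70% with 4HC lower. For DUSP1 and DUSP5, which have 1 transcript in the table, this repeats the gene. The main transcript of DUSP6, with 96.8% of its reads, went from 354.8 ± 28.2 to 405.5 ± 9.09 expected counts. For DUSP14 the transcripts differed. Its main transcript, with 94.2% of the reads, overlapped between the groups (819.8 ± 26.1 and 897.6 ± 66.9 expected counts), while the minor one, with 5.78%, had 57.4, 50.1 and 78.1 expected counts in control and 47.4, 45.2 and 37.5 in 4HC. All 3 4HC samples were lower for this minor transcript (log2 ratio -0.51 in CPM). The main transcripts of SPRY2 (86.4% of its reads), SPRY4 (81.4%) and DUSP8 (96.2%) overlapped between the groups.

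The genes most like DUSP1 over the 6 samples, in Pearson r of log2 CPM among 10374 genes with at least 5 CPM, were TUBE1 (r = 0.992), RPE (0.989), AGPAT5 (0.989), DIPK2A (0.989) and UBE3C (0.988). DUSP1 was used here because it had the largest change among the members with at least 5 CPM. With 6 samples in 2 groups these values describe a shared difference between the groups as much as a shared pattern within them. They are also the highest of 10374 values over few samples, which by itself favours an r near 1.

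The closest relatives of the 10 genes were then examined. Of 8 other MAP kinase phosphatase, Sprouty and SPRED genes, all 8 were tested, 1 was higher and 1 lower (median log2 fold change -0.02). That is 12.5% each, beside 19.2% higher and 17.1% lower of all genes tested. SPRED2, an inhibitor of RAS-RAF signalling, rose from 58.1 ± 1.76 to 64.0 ± 3.82 CPM (log2 fold change 0.14, adjusted p 0.0242 in edgeR's quasi-likelihood test), a call lost without the first control sample (adjusted p 0.133) or the first 4HC sample (0.242) and held in 11 of 16 alternatives. DUSP16, a JNK phosphatase, fell from 77.3 ± 1.87 to 70.4 ± 1.96 CPM (log2 fold change -0.13, adjusted p 0.0164), a call lost without the third control sample (0.0890) or the second 4HC sample (0.0903) and held in 11 of 16 alternatives. DUSP2, a nuclear phosphatase, was at 0.858 ± 0.228 and 1.28 ± 0.214 CPM (log2 fold change 0.58, adjusted p 0.125, and 0.0455 and 0.0422 with limma on TPM + 1 and FPKM + 1), and SPRY1 at 8.70 ± 0.811 and 7.75 ± 0.365 CPM (log2 fold change -0.17, adjusted p 0.257). The log2 fold changes of DUSP9 (0.20), SPRY3 (0.00), SPRED1 (-0.04) and SPRED3 (-0.11) did not pass either.

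**Figure D3:**
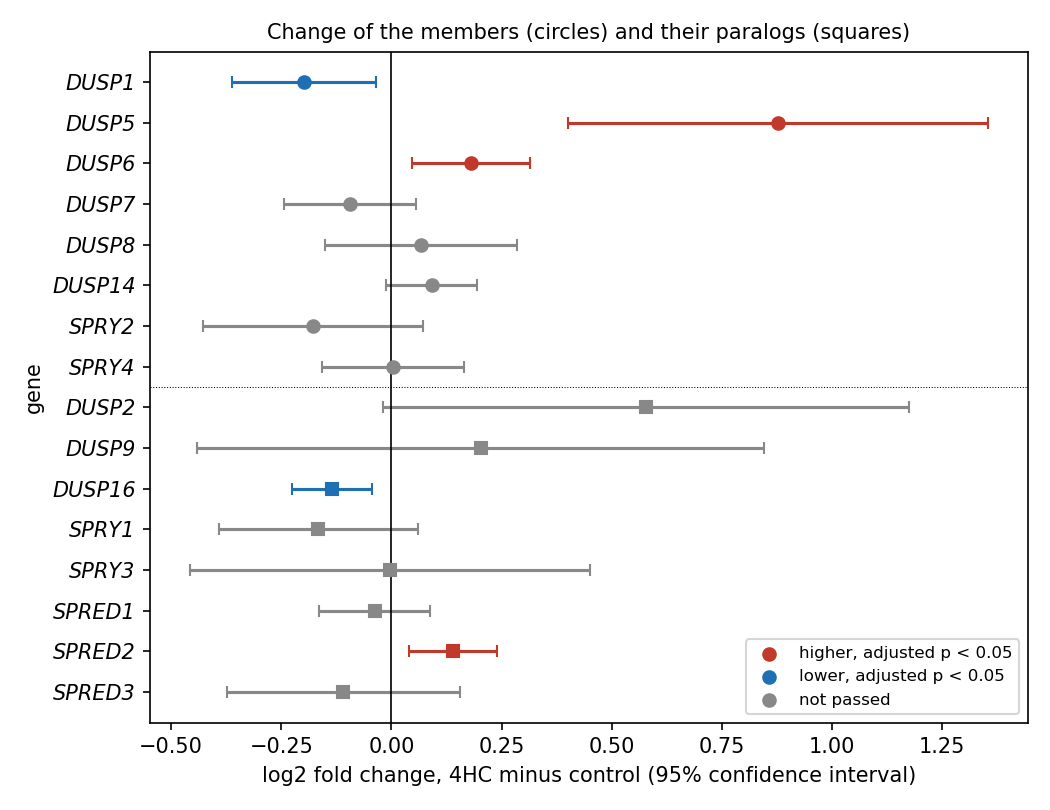
Log2 fold change of 4HC minus control (x axis) with its 95% confidence interval for the 8 tested members (circles) and 8 paralogs (squares), from edgeR; red is higher, blue is lower and grey did not pass at an adjusted p under 0.05. DUSP5 lies farthest from 0 at 0.88, while the intervals of DUSP1, DUSP6, DUSP16 and SPRED2 leave out 0 but end within 0.05 of it.

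The kinases that these phosphatases act on had smaller log2 fold changes than DUSP5. MAPK3 (ERK1) rose from 31.3 ± 1.36 to 38.6 ± 1.31 CPM (log2 fold change 0.30, adjusted p 3.50e-05 in edgeR's quasi-likelihood test). MAPK8 (JNK1) fell from 48.4 ± 2.61 to 43.3 ± 2.06 CPM (log2 fold change -0.16, adjusted p 0.0173), a call lost without the first control sample (0.112), the third control sample (0.0576) or the first 4HC sample (0.0917) and held in 9 of 16 alternatives. MAPK9 (JNK2) and MAPK14 (p38 alpha) had log2 fold changes of 0.07 and 0.00 and did not pass.

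Upstream and downstream of the 10 genes, 147 tested genes of 9 pathway lists, the relatives above included, held 34 higher and 26 lower (median log2 fold change 0.06, beside 0.00 over all genes tested). That is 23.1% higher and 17.7% lower, near the 19.2% and 17.1% of all genes tested. The shares higher and lower were 38.5% and 15.4% of receptor tyrosine kinases and 6.25% and 31.25% of ligands. They were 12% and 36% of adaptors and RAS regulators, and 14.3% and 0% of RAF, MEK and ERK kinases with scaffolds. No list was tested as a set. Of 13 receptor tyrosine kinases, 5 were higher and 2 lower, and the 5 became 2 without the first control sample, 3 without the first 4HC sample and 2 with DESeq2. The FGF receptors FGFR3 (log2 fold change 0.42) and FGFR1 (0.27) rose, and the neuregulin receptors ERBB4 (-0.40) and ERBB3 (-0.33) fell. Of 16 receptor ligands 1 was higher, the growth factor IGF2 (0.76), and 5 were lower, among them EREG (-0.35), an EGF-like ligand of the ovulatory follicle, VEGFA (-0.26) and KITLG (-0.24), the KIT ligand of GCs. The count of ligands higher was 2 without the second control or the third 4HC sample. Of 25 adaptors and RAS regulators, 3 were higher and 9 lower (5 lower without the second or the third 4HC sample, and 4 with limma), with the RAS gene HRAS higher (0.33), and NRAS (-0.23), another RAS gene, and the adaptor GAB2 (-0.27) lower. Of 14 RAF, MEK and ERK kinases with their scaffolds only MAPK3 and the scaffold KSR1 passed, KSR1 rising from 9.81 ± 0.592 to 16.7 ± 0.502 CPM (0.77), and without the first 4HC sample 1 gene of this list was lower.

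Of 26 kinases and regulators of the JNK and p38 branch, 6 were higher and 5 lower (3 lower without the first or the second control sample and with DESeq2). That is 23.1% higher and 19.2% lower, beside 19.2% and 17.1% of all genes tested. The shares were 20% and 0% for the effector kinases and 10% and 10% for the atypical dual-specificity phosphatases below. The p38 beta gene MAPK11 (0.52) and the stress sensor GADD45A (0.35) rose, and MAP2K6, a kinase that activates p38, fell (-0.33), a call lost with limma on TPM + 0.1 (adjusted p 0.0565) and on FPKM + 1 (0.0511). MAP3K1 (0.33) passed at an adjusted p of 0.0463 in edgeR's quasi-likelihood test although its groups overlapped, and the call was lost in 4 of 6 fits with a sample left out (without the first or the third control sample, or the first or second 4HC sample). Of 10 effector kinases 2 were higher, RPS6KA1 (0.64), which encodes a ribosomal S6 kinase activated by ERK, and MKNK2 (0.12), whose groups overlapped and whose call was lost in 4 of 6 such fits (without the first or the third control sample, or the first or second 4HC sample). Of 10 atypical dual-specificity phosphatases 1 was higher (DUSP19, 0.37, lost without the third control or the third 4HC sample) and 1 lower (STYX, a pseudophosphatase, -0.20), with 2 lower without the first control sample.

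Among 25 tested transcriptional targets of ERK other than the 10 genes, 13 were higher and 3 lower, with a median log2 fold change of 0.26. The higher share was 52%, beside 19.2% of all genes tested. The list was chosen with earlier results of these data known, so this share describes the list and is no test of it. The lower genes, named after their values were seen, were the transcription factor genes JUN (-0.29), MYC (-0.29) and SRF (-0.11), and the 3 became 1 without the second control or the second 4HC sample. EPHA2, a receptor for ephrins, rose from 10.5 ± 0.977 to 35.6 ± 1.73 CPM (log2 fold change 1.76), and the cytokine gene LIF from 2.53 ± 0.368 to 8.43 ± 0.625 CPM (1.73). The sphingosine kinase gene SPHK1 (0.51) and EGR1, an immediate early transcription factor (92.9 ± 1.08 to 130 ± 8.68 CPM, 0.49), also rose. These genes respond to other signals besides ERK. The 10 feedback genes, several of which are also used as ERK readouts, had a median of 0.04 over the 8 tested.

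**Figure D4:**
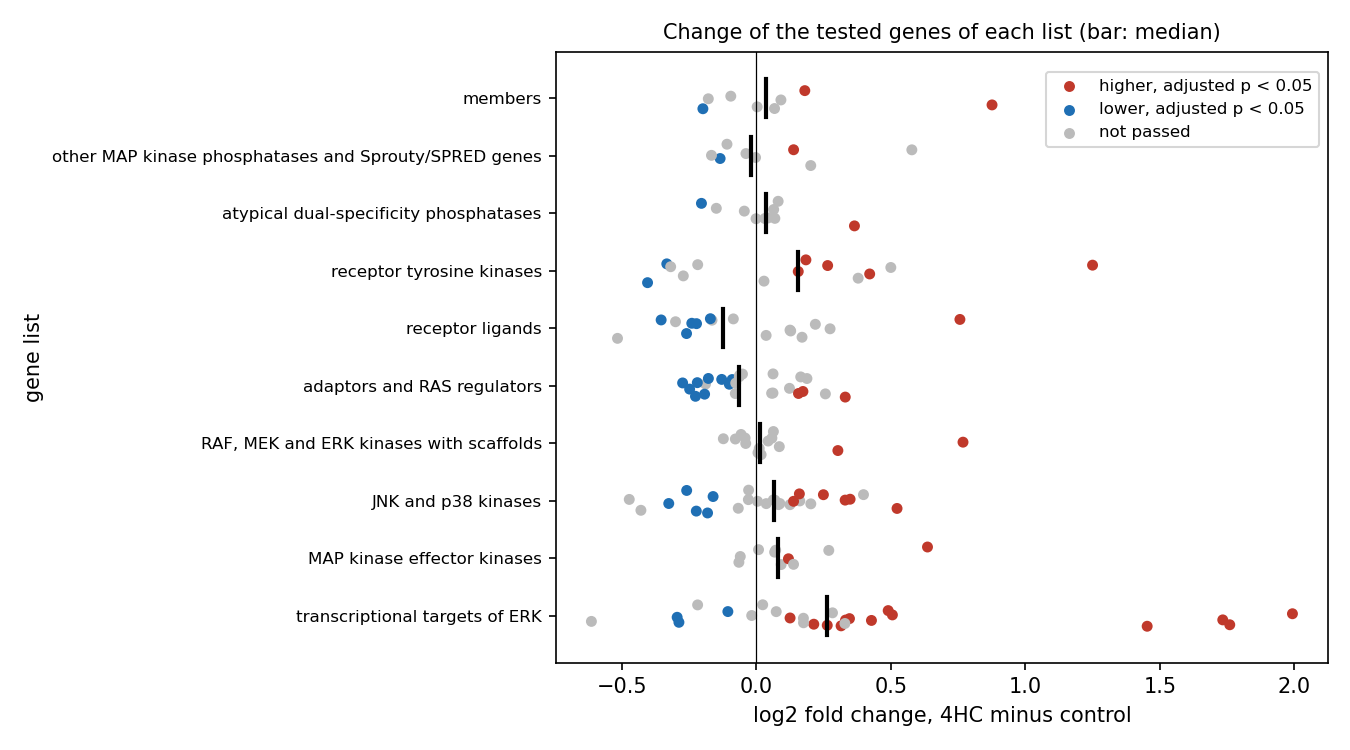
Log2 fold change of 4HC minus control (x axis) for the tested genes of each list (rows, each point 1 gene, spread vertically only for clarity), with the median as a black bar; red is higher, blue lower and grey not passed at an adjusted p under 0.05. The median of the ERK target list is 0.26, and that of the 8 tested members is 0.04.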

How the data were processed

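Reads were filtered by the authors (SOAPnuke) and analysed on the Dr. Tom system. The submitters' processing notes name HISAT2, Bowtie2, RSEM 1.3.1, DESeq2 1.4.5 and GRCh38.p13. The authors deposited an expected count, a TPM value and an FPKM value for each of 16798 genes, and expected counts for 79213 transcripts. Whole numbers were 85.5% of the gene values. The authors scaled TPM to length and to a fixed sum in each sample, and the deposited FPKM to length and library size. Their columns of log2 fold changes, p-values and q-values, and a second gene table with the same values, were not used.

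Expected counts were rounded and tested with edgeR 4.0.16 (TMM, filterByExpr, quasi-likelihood test, condition as the only term, Benjamini-Hochberg adjustment over 12368 genes) in R 4.3.3. The samples entered by their labels, 3 per group. The method was tested on simulated data of 12281 genes. Of genes given a log2 fold change of 0.25 or -0.25, 57.5% and 53.8% were recovered at an adjusted p under 0.05. Of all calls, 5.45% were false. Smaller changes were not simulated. The simulation changed far fewer genes than were called in the data and gave every gene the same dispersion. Its rates therefore do not carry over to the calls above. Exact permutation tests used log2(CPM + 0.5) and scipy 1.17.1. The 10 members and the lists were chosen with earlier results of these data known. Deviations from the group mean correlated at -0.0112, 0.0551 and 0.0520 between samples with the same replicate number. Between samples with different numbers they correlated at -0.0960 to 0.0443. No 2 samples agreed within sampling noise.

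The alternatives were DESeq2 1.42.0, DESeq2 size factors within edgeR, library size only, no filter, a minimum of 10 counts, unrounded counts, the replicate block, limma 3.58.1 on log2 of TPM + 1, TPM + 0.1 or FPKM + 1, a fold of at least 2 with an unadjusted p under 0.05, and each sample left out.

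Named were the 10 members, the tested paralogs, kinases that the phosphatases act on, in every other list up to 4 genes with the largest change past the threshold and at least 5 CPM in either group, and the 5 genes most like the member with the largest change at that level. Some genes that the rule named are not reported here. Promoters are shown for the 2 members with the largest changes among the tested members in the promoter table. DUSP8's motif, the ratios within a sample and the minor DUSP14 transcript were chosen after their values were seen. The table lists DUSP8 and DUSP14 on alternate scaffolds, so only their bands are given. Figures were drawn with matplotlib 3.10.9.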

Additional observations from a re-analysis of the deposited data

How the results depend on the processing

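The log2 fold changes of DUSP1, DUSP5, DUSP6, DUSP7, DUSP8, DUSP14 and SPRY2 kept their direction in all 16 refits, while SPRY4, near 0, turned to -0.0019 with DESeq2, -0.0018 with DESeq2 size factors, -0.0296 and -0.0178 without the third control or the third 4HC sample, and -0.0045 and -0.0052 with limma on TPM + 1 and TPM + 0.1 (-0.0296 to 0.0262 over the fits with a sample left out). The count of members higher in 4HC (2) was 1 with DESeq2 and with limma on TPM + 1 or TPM + 0.1, 0 at a fold of at least 2 with an unadjusted p under 0.05, and 1 to 3 when a sample was left out, where the added member was DUSP10. DUSP10 passed the filter in those fits only through its higher 4HC counts. The count lower (1) was 0 with DESeq2, library size only, no filter, limma on FPKM + 1 and the fold threshold, and 0 to 1 when a sample was left out. The 34 and 26 genes of the lists together became 5 and 0 at the fold threshold, the 26 became 16 with limma on FPKM + 1, and they ranged from 28 to 34 and 19 to 24 when a sample was left out. Over all genes the 2379 higher and 2118 lower became 126 and 16 at the fold threshold, the latter 1343 with limma on FPKM + 1, and they ranged from 1942 to 2267 and 1680 to 1979 when a sample was left out. The share of called genes that were higher was 52.9%, 61.1% with library size only and 62.8% with limma on FPKM + 1.

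With the replicate number as a block, 2 members were higher and 0 lower (DUSP1 had an adjusted p of 0.0609), and 2259 genes were higher and 1954 lower. By deviation from the group mean, 4 of 6 samples correlated best with the sample of the other group that had the same number. All these correlations were near 0, and the labels do not say that the number marks a shared culture or day.

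Genes near 0 also changed sign. SPRY3 turned to 0.018 with library size only, 0.127 and 0.153 without the first control or the second 4HC sample, and 0.0036 with limma on FPKM + 1, SPRED1 to 0.0046 without the first 4HC sample, SPRED3 to 0.0229 without the second control sample, MAPK9 to -0.017 and -0.017 with limma on TPM + 1 and TPM + 0.1, and MAPK14 to -0.00055 with DESeq2, -0.00054 with DESeq2 size factors, -0.0074 and -0.0205 without the third control or the third 4HC sample, and -0.054, -0.055 and -0.027 with limma on TPM + 1, TPM + 0.1 and FPKM + 1. Over the fits with a sample left out they ranged from -0.125 to 0.153 (SPRY3), -0.0729 to 0.0046 (SPRED1), -0.176 to 0.0229 (SPRED3) and -0.0205 to 0.0240 (MAPK14). Limma on FPKM + 1 lowered IGF2 to 0.48, LIF to 0.99 and MAP2K6 to -0.17, the last at an adjusted p of 0.0511 (0.0565 with TPM + 0.1). The cause of these changes was not tested. Depth limited DUSP4, DUSP5 and DUSP10, which had at most 50 counts in a sample.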
